A study of Mus musculus with 12 samples.

Results

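The miRNAs described here were the 5p arms of the miR-10, miR-99 and miR-100 family, mmu-miR-10a-5p, mmu-miR-10b-5p, mmu-miR-99a-5p, mmu-miR-99b-5p and mmu-miR-100-5p (the mmu prefix is left out from here on), chosen by name as 5 of the 1915 miRNA names in a table of mouse testis small RNAs. Total RNA came from testes of male C57BL/6 mice aged 4 months, and small RNAs of 17 to 40 nt were made into libraries with a method that the labels call 10ng-seq. Libraries were made after and before oxidation with sodium periodate (NaIO4), each from 10, 50 and 100 ng of RNA with 2 technical replicates, which gave 6 groups and 12 libraries. Methylated and unmethylated spike-in RNAs were added in amounts that followed the RNA input. The labels do not say how many mice the RNA came from, so every p-value below measures the spread between technical libraries and not between animals.

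A miRNA guides an Argonaute protein to messenger RNAs, mainly through its seed, the bases counted from the 5' end at positions 2 to 8. The miR-10 genes lie in the Hox clusters, whose protein-coding genes set position along the body axis, while the miR-99 and miR-100 genes lie near genes of the let-7 and miR-125 families. The miR-99 family is known to repress the growth regulator mTOR in cultured cells. Periodate oxidizes a 3' end with free hydroxyls and so blocks adapter ligation, and a 2'-O-methylated end is spared. Most mammalian miRNAs have free 3' hydroxyls, and piRNAs of germ cells carry the methyl group.

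The mature sequences are shown because the family falls into 2 groups by seed, and the results are set out by these groups. The sequences are from RefSeq (GRCm38.p6), all 5 names were matched, and the seed is in capitals.
miR-10a-5p: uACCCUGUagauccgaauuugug
miR-10b-5p: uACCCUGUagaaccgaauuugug
miR-99a-5p: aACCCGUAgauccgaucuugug
miR-99b-5p: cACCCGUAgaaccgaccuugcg
miR-100-5p: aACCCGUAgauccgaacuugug
Both miR-10 miRNAs have 23 nt and the seed ACCCUGU, and the other 3 have 22 nt and the seed ACCCGUA. With positions counted from 1 at the 5' end, miR-10b-5p differed from miR-10a-5p at a single base (U12A), and miR-100-5p differed from miR-99a-5p at a single base (U16A). miR-99b-5p differed from miR-99a-5p at 4 bases (A1C, U11A, U16C and U21C). Across the seed groups, the longest run shared by miR-10b-5p and miR-99b-5p was guagaaccga, and the longest shared by miR-10a-5p and miR-100-5p was guagauccgaa. The labels and files do not say how reads of near-identical miRNAs were assigned, so the levels of miR-10a-5p against miR-10b-5p, and of miR-99a-5p against miR-100-5p, rest on 1 base each.

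Each mature sequence matched 1 locus in the RefSeq table, and all 5 loci are on the plus strand of GRCm38. miR-10a-5p is at chr11:96317186-96317208, where GENCODE M21 lists only the Mir10a gene itself. miR-10b-5p is at chr2:74726074-74726096, inside the gene spans of Hoxd3 and Hoxd4 and outside their exons. miR-99a-5p is at chr16:77598940-77598961, inside its host transcript Mir99ahg and opposite the gene span of Gm11146. miR-99b-5p is at chr17:17830194-17830215, inside the gene span of Spaca6, which encodes a sperm protein needed for fertilization. miR-100-5p is at chr9:41531437-41531458, inside the noncoding genes 3110039I08Rik and Gm49317 and opposite an exon of Gm48742. The hairpin of Mir10b (chr2:74726070-74726137) is shown with both mature arms in capitals, since almost all its reads came from the first arm.
Mir10b hairpin: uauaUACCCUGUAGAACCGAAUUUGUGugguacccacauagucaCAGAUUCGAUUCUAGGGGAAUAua

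Levels were the authors' RPM, reads scaled to a common library total, whose denominators came out at 1924201 to 3347735 reads per library. After oxidation a library held 625 to 937 miRNA reads, and before oxidation 326701 to 454158. All 60 values of the 5 miRNAs were whole reads within 0.01 of a read. Poisson intervals cover counting error only. The meiotic germ cell miRNAs miR-34c-5p, miR-34b-5p and miR-449a-5p summed to 1089 to 2294 RPM before oxidation, and the X-linked testis miRNAs miR-741-3p, miR-871-3p and miR-880-3p to 27769 to 37369 RPM. The smooth muscle miRNAs miR-143-3p and miR-145a-5p summed to 8940 to 13625 RPM, nearly all of it miR-143-3p. The Sertoli cell miRNAs miR-202-5p and miR-202-3p reached at most 200.0 RPM, the endothelial miR-126a arms at most 85.0 RPM, and the heart and skeletal muscle miRNAs miR-1a-3p, miR-133a-3p and miR-206-3p at most 130.1 RPM, with miR-206-3p at 0. The 3 blood miRNAs had 34 reads and the liver miRNA miR-122-5p had 31 reads over the 6 libraries.

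Before oxidation the family was among the most abundant in the testis. Over the 6 libraries miR-10b-5p ranked 3rd of the 493 miRNAs with any read, miR-100-5p ranked 4th, miR-99a-5p ranked 5th, miR-99b-5p ranked 10th and miR-10a-5p ranked 28th. Summed, the 5 had 29530 ± 6140 RPM (SD, n = 6). miR-10b-5p, the only member made from the Hoxd cluster, had 9822 and 10197 RPM at 10 ng, 12175 and 11811 RPM at 50 ng, and 10952 and 11575 RPM at 100 ng. miR-10a-5p, made from the Hoxb cluster, had 539 and 528 RPM at 10 ng, 636 and 617 RPM at 50 ng, and 607 and 610 RPM at 100 ng. In both miR-10 miRNAs the 10 ng libraries were the lowest of the 6, and the 50 ng libraries were above the 100 ng ones.

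The miRNAs with the ACCCGUA seed had means at 10 ng that were further below those at 100 ng. miR-100-5p had 5104 and 5365 RPM at 10 ng, 8450 and 7948 RPM at 50 ng, and 10349 and 11400 RPM at 100 ng. miR-99a-5p had 3752 and 3892 RPM at 10 ng, 6318 and 5929 RPM at 50 ng, and 8038 and 8796 RPM at 100 ng. miR-99b-5p, made from a separate cluster on chromosome 17, had 2700 and 2715 RPM at 10 ng, 3752 and 3566 RPM at 50 ng, and 4187 and 4849 RPM at 100 ng. In all 3 the inputs did not overlap, with the 10 ng libraries lowest and the 100 ng libraries highest. This is not particular to the family. The same order without overlap was seen in miR-741-3p, miR-143-3p and miR-34c-5p, and the reverse order in miR-871-3p. How many of all miRNAs separated in this way was not counted.

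**Figure D1:**
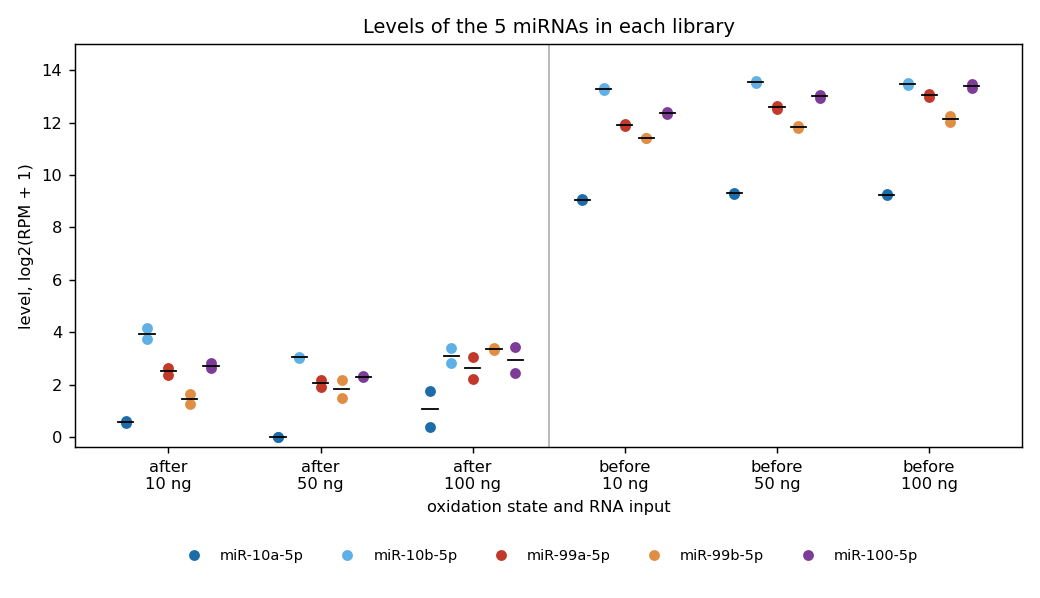
Levels of the 5 miRNAs on a log2(RPM + 1) scale (vertical axis) in the 6 groups (horizontal axis, after oxidation left of the line and before oxidation right of it); each point is 1 library and each dash the mean of 2. All points after oxidation are below all points before it, and miR-10a-5p at 50 ng after oxidation is at 0.

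The order of levels was the same at 10 and 50 ng and tightened at 100 ng. miR-10b-5p was highest, followed by miR-100-5p, miR-99a-5p, miR-99b-5p and miR-10a-5p, with no overlap between neighbours in this order at 10 or 50 ng. At 100 ng miR-10b-5p averaged 11264 ± 441 RPM and miR-100-5p 10874 ± 743 RPM (SD, n = 2 each), and these 2 overlapped. The other 3 kept their order at 100 ng, again without overlap.

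Set against 100 ng before oxidation, 3 of the 5 miRNAs were called lower at 10 ng and none higher, and these 3 were the ones with the ACCCGUA seed. The test was limma on log2(RPM + 1) over 141 miRNAs, with a call at a Benjamini-Hochberg adjusted p below 0.05. Among all 141 miRNAs 34.8% were called lower and 19.1% higher, and the median change was -0.49. At 10 ng miR-99a-5p had 45.4% of its RPM at 100 ng, with a log2 change of -1.14 ± 0.28 (SE, limma adjusted p = 0.00934). miR-100-5p had 48.1% (-1.05 ± 0.29, limma adjusted p = 0.0147) and miR-99b-5p had 59.9% (-0.73 ± 0.26, limma adjusted p = 0.0410).

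The miR-10 miRNAs were not called in this comparison. miR-10b-5p at 10 ng had 88.9% of its RPM at 100 ng, a log2 change of -0.17 with a 95% interval of -0.67 to 0.33 (limma adjusted p = 0.529). miR-10a-5p had 87.6%, a change of -0.19 with an interval of -1.04 to 0.66 (limma adjusted p = 0.684). That fit shares one spread between libraries after and before oxidation. Fitted alone, the libraries after oxidation gave these changes an SE of 0.345 to 0.572, and the libraries before oxidation an SE of 0.0484 to 0.0723. With only the 6 libraries before oxidation, an alternative chosen after seeing the data, 5 of 5 were called lower at 10 ng, where 56.0% of all miRNAs were. There miR-10b-5p had a limma adjusted p of 0.00181 and miR-10a-5p of 0.0170.

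The direction of the miR-10 change depended on the scale. Relative to the library medians, the sum of miRNA reads or the methylated spike-ins, miR-10b-5p at 10 ng was 0.21, 0.04 and 0.15 log2 units above 100 ng, and miR-10a-5p was 0.19, 0.02 and 0.13 above. None of these was called. The other 3 stayed lower on each of these scales, with miR-99a-5p at -0.76, -0.92 and -0.82, and were called only against the methylated spike-ins (limma adjusted p = 0.00274 for miR-99a-5p, 0.0126 for miR-100-5p and 0.0272 for miR-99b-5p). These scales moved the median of all 141 miRNAs to -0.11, -0.28 and -0.17, and turned the calls from 49 lower and 27 higher to 23 and 37, 12 and 10, and 52 and 47, and edgeR with TMM gave 33 and 42 with a median of -0.13. No fit was scaled on the unmethylated spike-ins, which had 1473 and 1601 RPM at 10 ng and 4895 and 4802 RPM at 100 ng before oxidation. Relative to those, the 3 miRNAs with the ACCCGUA seed, both miR-10 miRNAs and the median of the 141 miRNAs were higher at 10 ng than at 100 ng, which was not tested. Leaving out the second 100 ng library took the number of members called to 0, and leaving out the first 100 ng library or either 10 ng library took it to 1. Without either 50 ng library before oxidation it was 2.

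**Figure D2:**
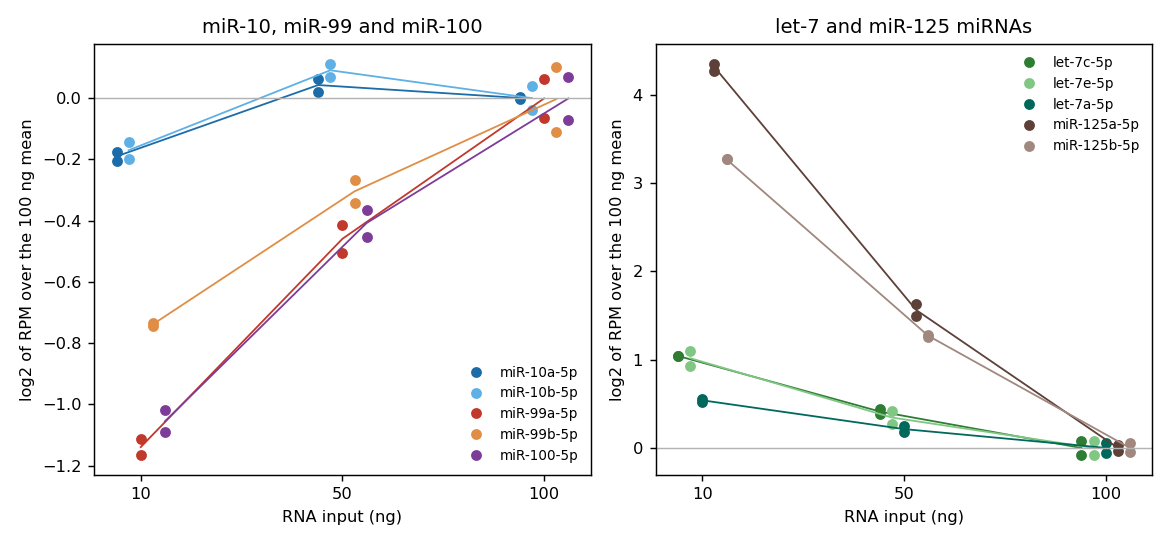
Level before oxidation as the log2 of RPM over the 100 ng mean (vertical axis) against RNA input (horizontal axis, categories), for the 5 miRNAs (left) and for let-7 and miR-125 miRNAs with at least 1 gene near Mir99a, Mir99b or Mir100 (right); points are libraries and lines join the means of 2. The vertical scales differ: miR-99a-5p and miR-100-5p are more than 1 unit below 0 at 10 ng, and miR-125a-5p is more than 4 units above it.

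Between 50 and 100 ng before oxidation none of the 141 miRNAs was called (0% lower, 0% higher), 24 having an unadjusted p below 0.05. At 50 ng miR-99a-5p had 72.8% of its 100 ng level, miR-100-5p 75.4% and miR-99b-5p 80.98%, while miR-10a-5p had 103.0% and miR-10b-5p 106.5%. edgeR called 16 miRNAs without TMM scaling, among them 3 of the 5 as lower, and 11 with it, among them none of the 5 as lower. With only the libraries before oxidation limma called 14.2% of miRNAs lower, and the 3 with the ACCCGUA seed were among them, with miR-99b-5p at -0.30 ± 0.06 (limma adjusted p = 2.82e-05).

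The balance between miR-10a-5p and miR-10b-5p, and that between miR-99a-5p and miR-100-5p, moved little with the input. Before oxidation there were 18.03 to 19.3 reads of miR-10b-5p per read of miR-10a-5p (18.8 ± 0.54, SD, n = 6). The range at 10 ng overlapped those at 50 and 100 ng, while both 50 ng libraries lay above both 100 ng libraries. The ratio of miR-100-5p to miR-99a-5p was 1.36 and 1.38 from 10 ng, 1.34 and 1.34 from 50 ng, and 1.29 and 1.30 from 100 ng. Those ratios were highest at 10 ng and lowest at 100 ng, without overlap, over a range of 1.29 to 1.38. The ratio of miR-99a-5p to miR-99b-5p moved more, with 1.39 and 1.43 from 10 ng, 1.68 and 1.66 from 50 ng, and 1.92 and 1.81 from 100 ng, again without overlap.

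Between the seed groups the balance shifted. The miR-10 miRNAs made up 47.3% and 47.3% of the summed RPM of the 5 from 10 ng, 40.9% and 41.6% from 50 ng, and 33.9% and 32.7% from 100 ng. miR-99a-5p reached 0.382 and 0.382 of the level of miR-10b-5p from 10 ng, 0.519 and 0.502 from 50 ng, and 0.734 and 0.760 from 100 ng, and miR-100-5p 0.520 and 0.526, 0.694 and 0.673, and 0.945 and 0.985. These ratios do not depend on how a library is scaled. The inputs did not overlap in any of them, and no test was run on the ratios. miR-99b-5p held 11.9% to 13.03% of the sum at every input.

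**Figure D3:**
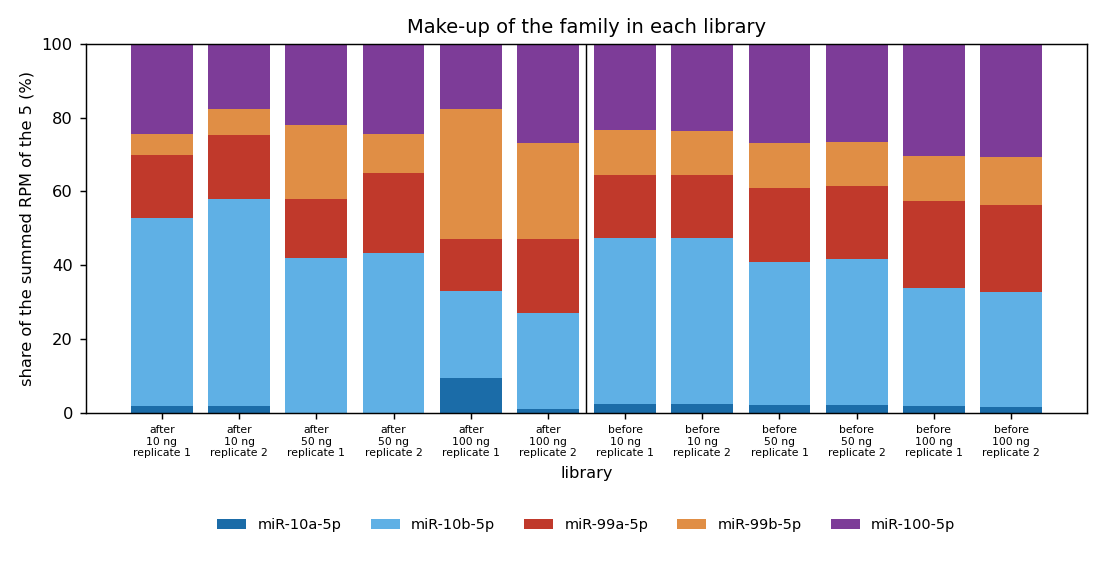
Share of each miRNA in the summed RPM of the 5 (vertical axis, %) in each of the 12 libraries (horizontal axis, after oxidation left of the line); bars add to 100%. Before oxidation the 2 blue parts, miR-10a-5p and miR-10b-5p, shrink to 32.7% to 33.9% at 100 ng, and after oxidation the shares rest on 37 to 115 reads per library.

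As a share of all miRNA RPM before oxidation, the 5 summed to 18.8% and 19.0% from 10 ng, 24.0% and 23.3% from 50 ng, and 25.2% and 26.9% from 100 ng. Sums of marker lists also differed between inputs, and not every marker was called. The meiotic germ cell list summed to 1089 and 1178 RPM in the 10 ng libraries, against 2193 and 2294 RPM in the 100 ng ones. Nearly all of it was miR-34c-5p, which was not called (log2 change -0.97, limma adjusted p = 0.0566), while miR-449a-5p was called lower (-2.15, limma adjusted p = 9.48e-05). The smooth muscle list reached 8940 to 9180 RPM at 10 ng, against 13430 to 13625 RPM at 100 ng. Nearly all of it was miR-143-3p, which was not called (-0.58, limma adjusted p = 0.0851). Of the other muscle and endothelial miRNAs, miR-1a-3p was called lower (-0.94, limma adjusted p = 0.0420) and miR-126a-3p was not called (-0.46, limma adjusted p = 0.0635). In the X-linked testis list miR-741-3p had a log2 change of -0.68 at 10 against 100 ng (limma adjusted p = 0.0566). miR-880-3p had -0.27 (limma adjusted p = 0.386), while miR-871-3p was called higher at 1.21 (limma adjusted p = 0.00566). The 2 miRNAs of the Sertoli cell list went opposite ways: miR-202-5p had 70.0 and 62.1 RPM at 10 ng, against 191.2 and 178.0 RPM at 100 ng (log2 change -1.47, limma adjusted p = 0.0143), and miR-202-3p had 35.0 and 47.6 RPM at 10 ng, against 8.77 and 8.84 RPM at 100 ng (2.09, limma adjusted p = 4.35e-05). The part of these markers in the levels of the family was not tested. The groups differ in the amount of total RNA used, and the labels give no difference in cell make-up between them.

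Among the 73 other miRNAs with at least 50 RPM before oxidation, the profiles over the 6 libraries most like that of the sum were, by root mean square difference of log2 levels, those of miR-146b-5p (0.0445), miR-741-3p of the X-linked testis cluster (0.0451), miR-143-3p of smooth muscle (0.0537), miR-16-5p (0.0762) and miR-24-3p (0.0847). By the same measure miR-99b-5p was at 0.0439 from the sum, and the other 4 members were at 0.154 to 0.209. miR-741-3p had 21119 ± 978 RPM at 10 ng, 29486 ± 62.1 RPM at 50 ng and 33886 ± 74.0 RPM at 100 ng (SD, n = 2 each). The X-linked miR-871-3p went the other way, with 6871 ± 156 RPM at 10 ng and 2980 ± 169 RPM at 100 ng.

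The let-7 and miR-125 miRNAs with at least 1 gene near Mir99a, Mir99b or Mir100 had higher means at 10 ng than at 100 ng. The sequences of 3 of them are shown because miR-125a-5p and miR-125b-5p, which share a seed, moved most, and let-7e-5p comes from a gene between Mir99b and Mir125a on chromosome 17.
miR-125a-5p: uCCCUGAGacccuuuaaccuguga
miR-125b-5p: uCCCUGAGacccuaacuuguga
let-7e-5p: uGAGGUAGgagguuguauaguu
Mir99b, Mirlet7e and Mir125a lie within 623 bases of one another on chromosome 17, from mature start to mature start, all inside Spaca6. Mirlet7c-1 starts 732 bases from Mir99a, while Mir125b-2 is 47339 bases from Mir99a and Mir125b-1 is 50503 bases from Mir100. let-7c-5p and miR-125b-5p can each come from 2 loci in the table, and let-7a-5p, a gene of which lies near Mir100, comes from several, so their reads cannot be assigned to one locus.

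miR-125a-5p, known as a regulator of blood stem cell numbers, had 3012 and 3186 RPM at 10 ng, 480 and 439 RPM at 50 ng, and 159 and 152 RPM at 100 ng. miR-125b-5p had 2368 and 2373 RPM at 10 ng, 587 and 597 RPM at 50 ng, and 254 and 237 RPM at 100 ng. The groups were far apart in both. Their log2 changes at 10 against 100 ng, 4.31 ± 0.44 and 3.27 ± 0.33, were the 2 highest of the 141 miRNAs (limma adjusted p = 9.48e-05 for each). let-7e-5p was also called higher at 10 ng (174.0 ± 14.2 RPM, against 85.9 ± 6.35 RPM at 100 ng, limma adjusted p = 0.00761). let-7c-5p (2.06 times its 100 ng level, limma adjusted p = 0.0991) and let-7a-5p (1.45 times, limma adjusted p = 0.167) were not called. Thus 3 of these 5 miRNAs were called higher, where 19.1% of all 141 miRNAs were. In the fit of the libraries before oxidation alone 5 of 5 were called higher, where 22% of all miRNAs were.

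The ratios of the ACCCGUA miRNAs to these miRNAs also differed between inputs. On chromosome 17 there were 0.897 and 0.852 reads of miR-99b-5p per read of miR-125a-5p from 10 ng, 7.81 and 8.13 from 50 ng, and 26.3 and 32.004 from 100 ng. For miR-100-5p per read of miR-125b-5p the ratios were 2.16 and 2.26 from 10 ng, 14.4 and 13.3 from 50 ng, and 40.7 and 48.2 from 100 ng. For miR-99a-5p per read of let-7c-5p they were 1.09 and 1.12, 2.77 and 2.70, and 4.52 and 5.54. In all 3 ratios the inputs did not overlap, and no test was run on them. The changes of miR-125a-5p and miR-125b-5p at 10 against 100 ng were the highest of the 141 miRNAs. Any other of the 141 set against either of them would therefore also have a lower mean ratio at 10 ng, so these ratios are not particular to the family.

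After oxidation 397 reads of the 5 were left over the 6 libraries, against 528007 reads before it. They summed to 24.96 ± 7.48 RPM after and 29530 ± 6140 RPM before oxidation (SD, n = 6 each). All 5 were called lower averaged over inputs and at each input, where 97.2% of the 141 miRNAs were called lower on average, 96.5% at 10 ng, 95.7% at 50 ng and 95.0% at 100 ng. The averaged log2 changes lay between -10.27 ± 0.17 for miR-100-5p and -8.65 ± 0.21 for miR-10a-5p (SE, largest limma adjusted p = 9.78e-11), and the median of all 141 was -6.02. The pseudocount limits these changes most in miRNAs with low levels.

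The share of all miRNA RPM held by the 5 was 5.41% to 12.3% after oxidation and 18.8% to 26.9% before it, with no overlap. Set on pooled reads, the sum of the 5 was 829-fold lower at 10 ng (95% exact Poisson interval 687 to 1008), 1793-fold at 50 ng (1453 to 2238) and 1165-fold at 100 ng (1014 to 1344). All miRNAs together were 326-fold, 505-fold and 491-fold lower at these inputs. Falls like that of the family were also seen outside it. Pooled over inputs, let-7a-5p was 1258-fold lower, let-7c-5p 1154-fold, miR-125a-5p 1322-fold and miR-125b-5p 1345-fold, against 1179-fold for the sum of the 5. let-7e-5p was 380-fold lower, from 5 reads left. The unmethylated spike-ins, which have free 3' ends, were 448-fold lower at 10 ng (267 to 820), 691-fold at 50 ng (475 to 1048) and 734-fold at 100 ng (545 to 1014), from 14, 27 and 43 reads left. The interval of the sum of the 5 lay above that of the spike-ins at 50 ng and overlapped it at 10 ng and, barely, at 100 ng. With all inputs pooled the sum was 1179-fold lower (1068 to 1304) and the spike-ins 638-fold lower (515 to 799), without overlap. On the scale of library medians 5 of 5 were called lower, while the calls of all miRNAs turned from 137 lower and 2 higher to 60 lower and 69 higher. The median change was -6.02 in the main fit, -8.75 with a pseudocount of 0.1 and -3.02 with 10. The median thus rests on the pseudocount, and miRNAs with high levels before oxidation tend to come out lower on that scale. Those 5 calls therefore cannot show that the family differs from other abundant miRNAs. edgeR with TMM, which gave 13 lower and 8 higher, called 3 of the 5.

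After oxidation miR-10b-5p had 12.5 and 16.6 RPM at 10 ng, 7.33 and 7.12 RPM at 50 ng, and 5.98 and 9.47 RPM at 100 ng. miR-99b-5p had 1.39 and 2.08 RPM at 10 ng, 3.49 and 1.78 RPM at 50 ng, and 8.96 and 9.47 RPM at 100 ng. The 10 ng libraries were thus the highest for miR-10b-5p, and the 100 ng libraries the highest for miR-99b-5p. miR-100-5p had 3.84 to 9.79 RPM, miR-99a-5p 2.79 to 7.26 RPM and miR-10a-5p 0 to 2.39 RPM over the 6 libraries.

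In reads, miR-10b-5p kept 27 and 32 reads after oxidation from 10 ng, 21 and 16 from 50 ng, and 20 and 30 from 100 ng. miR-100-5p kept 13 and 10, 11 and 9, and 15 and 31 reads, and miR-99a-5p kept 9 and 10, 8 and 8, and 12 and 23. miR-99b-5p kept 3 and 4 reads from 10 ng, 10 and 4 from 50 ng, and 30 and 30 from 100 ng. The second 100 ng library held the most reads of miR-100-5p and miR-99a-5p. miR-10a-5p kept 1 and 1 read from 10 ng, none from 50 ng, and 8 and 1 from 100 ng. For the 0 reads of miR-10a-5p at 50 ng, the 95% exact Poisson upper limit was 3.69 reads over both libraries, or 0.722 RPM, against 625 RPM pooled before oxidation. On pooled reads miR-10a-5p was 1090-fold lower at 10 ng (302 to 8998, from 2 reads) and 440-fold lower at 100 ng (232 to 963). The 8 reads in the first 100 ng library stand apart, and without that library the change of miR-10a-5p at 100 ng was -8.86 in place of -8.17 log2 units.

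**Figure D4:**
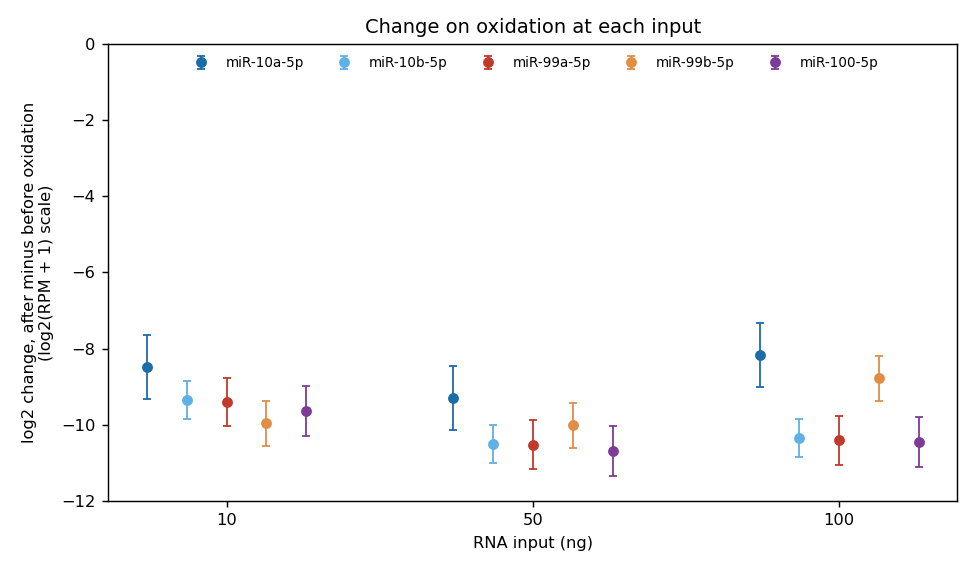
Log2 change after minus before oxidation on the log2(RPM + 1) scale (vertical axis) at each RNA input (horizontal axis); points are limma estimates from 2 against 2 libraries and bars their 95% intervals. miR-99b-5p lies at -9.96 at 10 ng and -8.79 at 100 ng, and miR-10b-5p at -9.34 and -10.36.

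On pooled reads the fall was shallowest at 100 ng for miR-99b-5p and at 10 ng for miR-10b-5p. miR-99b-5p was 1581-fold lower after oxidation at 10 ng (95% exact Poisson interval 767 to 3931), 1332-fold at 50 ng (794 to 2436) and 492-fold at 100 ng (382 to 645). miR-10b-5p was 693-fold lower at 10 ng (537 to 911), 1654-fold at 50 ng (1200 to 2349) and 1469-fold at 100 ng (1114 to 1980). A limma F test of whether the change depended on the input called 2 of the 5, miR-10b-5p (adjusted p = 0.0345) and miR-99b-5p (adjusted p = 0.0473), where 33.3% of the 141 miRNAs were called. The change at 10 ng minus that at 100 ng was 1.02 ± 0.31 for miR-10b-5p and -1.18 ± 0.37 for miR-99b-5p (SE, limma adjusted p = 0.0335 and 0.0371), where 36.9% were called. edgeR called none of the 141 in the F test with or without TMM scaling, while 66 had an unadjusted p below 0.05 in limma. The F test call of miR-10b-5p was lost on leaving out each library before oxidation in turn (adjusted p 0.0560 to 0.0951) and without the second 10 ng library after it (0.121), and on the scales of library medians, miRNA sums and spike-ins. That of miR-99b-5p was lost on leaving out each library in turn other than those of 50 ng after oxidation (0.0560 to 0.158).

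After oxidation miR-99b-5p was the only member called between inputs. It averaged 1.73 ± 0.49 RPM at 10 ng, 2.63 ± 1.21 RPM at 50 ng and 9.22 ± 0.36 RPM at 100 ng (SD, n = 2 each). At 10 against 100 ng it changed by -1.91 ± 0.26 (limma adjusted p = 0.00860), where 1.42% of the miRNAs were called lower. At 50 against 100 ng it changed by -1.53 ± 0.26 (limma adjusted p = 0.0213), where 1.42% were called lower and 2.84% higher. miR-10b-5p was at 14.6 ± 2.93 RPM at 10 ng and 7.73 ± 2.47 RPM at 100 ng, without overlap and not called (0.85 ± 0.22, limma adjusted p = 0.116). With only the 6 libraries after oxidation neither change of miR-99b-5p was called (limma adjusted p = 0.490 and 0.470), and 0% of the miRNAs were. The call at 50 against 100 ng was also lost on leaving out each library before oxidation in turn (adjusted p 0.0503 to 0.0730, limma).

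The make-up of the remaining reads was uneven between libraries. miR-99b-5p held 5.66% and 7.02% of the RPM of the 5 after oxidation from 10 ng, 20% and 10.8% from 50 ng, and 35.3% and 26.1% from 100 ng, against 12.3% and 13.03% before oxidation at 100 ng. miR-10b-5p held 50.9% and 56.1% from 10 ng, 42.0% and 43.2% from 50 ng, and 23.5% and 26.1% from 100 ng. The ratio of miR-100-5p to miR-99a-5p was 1.00 to 1.44 after oxidation, a range that held all the values before it. After oxidation the let-7 and miR-125 miRNAs kept few reads, 14 of miR-125a-5p, 12 of miR-125b-5p, 33 of let-7c-5p, 36 of let-7a-5p and 5 of let-7e-5p in all. All 5 of these were called lower averaged over inputs, where 97.2% of the 141 miRNAs were.

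Reads from the opposite arms of the hairpins were rare. miR-10b-3p had 73 reads and miR-99b-3p 37 reads over the 6 libraries before oxidation, against 196966 and 64971 reads of their 5p arms. Both had 0 reads after oxidation, and miR-10a-3p, miR-99a-3p and miR-100-3p were listed at 0 in all 12 libraries. Of the other Hox cluster miRNAs, miR-196a-5p had 55 reads and miR-615-3p 100 reads before oxidation and 0 after it, and miR-196b-5p and miR-615-5p were listed at 0 throughout. None of these arms or Hox miRNAs reached the mean of 5 RPM needed for a test, whereas all 5 members did. In the piRNA table none of the 1018402 sequences lay within the hairpin of Mir10a, Mir10b, Mir99a or Mir100 or within the mature miR-99b-5p or miR-99b-3p, and none held bases 2 to 15 of a member. The hairpin of Mir99b was not searched.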

How the data were processed

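Small RNA libraries of mouse testis were compared after and before periodate oxidation at 3 inputs. The miRNA and piRNA tables hold RPM values as deposited; the submitters' processing notes name Bowtie, mm10 and hg38, and neither the denominator nor the handling of shared reads is stated. The deposited spike-in table holds raw counts. Denominators were recovered from the RPM step of 1 read in the piRNA table, where 100% of values came out whole within 0.01 of a read, as did 93.2% to 100% of miRNA values. No per-sample column was left unused.

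miRNAs with a mean of at least 5 RPM (141 of 1915) entered limma's trended fit as log2(RPM + 1), with a mean for each of the 6 groups and a pooled spread (R 4.3.3, limma 3.58.1), and p-values were Benjamini-Hochberg adjusted over all 141. edgeR 4.0.16 was run on recovered reads rounded to whole numbers and called 140 miRNAs averaged over inputs. The step was tested on simulated data. Alternatives were pseudocounts of 0.1 and 10, no filter or 50 RPM, other scalings, a replicate block, subsets of libraries and leaving out each library. Named miRNAs were the 5 members, their opposite arms, cluster neighbours, other Hox miRNAs, cell type markers and the 5 most alike profiles. The members and lists were chosen with earlier results of these data known.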

Additional observations from a re-analysis of the deposited data

Results flagged for a closer look

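Among the 5 miRNAs, miR-10b-5p and miR-99b-5p had a change on oxidation that differed between the inputs in limma's F test, and the test of the difference itself is what singled them out. miR-10b-5p had an adjusted p of 0.0345, with log2 changes of -9.34 at 10 ng, -10.51 at 50 ng and -10.36 at 100 ng. miR-99b-5p had an adjusted p of 0.0473, with log2 changes of -9.96 at 10 ng, -10.02 at 50 ng and -8.79 at 100 ng. Behind these values stand 16 to 32 reads of miR-10b-5p and 3 to 30 reads of miR-99b-5p per library after oxidation. Of all 141 miRNAs 33.3% were called in this test, so 2 of 5 is close to the background. edgeR called none of the 141 (66 had an unadjusted p below 0.05 in limma), and leaving out each of the 12 libraries in turn ended the call of miR-10b-5p in 7 fits and that of miR-99b-5p in 10.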

How the results depend on the processing

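The falls on oxidation kept their direction and call for all 5 miRNAs in all 12 fits that left out 1 library. The number of miRNAs called on average and at 10, 50 and 100 ng was 298, 214, 233 and 263 with no filter and 66 at each with a filter of 50 RPM. edgeR with TMM called 21, 9, 20 and 19, and 3, 0, 3 and 3 of the 5 as lower. Shares of miRNA RPM gave 81, 86 and 74 at 10, 50 and 100 ng, with 3 of the 5 lower at 100 ng. There miR-99b-5p turned to 0.0059 on these shares and to 0.25 in edgeR with TMM, and miR-10a-5p to 0.41 in edgeR with TMM. Leaving out 1 library gave 136 to 140, 136 to 139, 135 to 138 and 133 to 138 calls, and 5 of the 5 throughout.

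Between 10 and 100 ng before oxidation the calls were 38 with a pseudocount of 0.1, 115 with no filter, 26 with a filter of 50 RPM and 22 on shares of miRNA RPM (76 as reported, 94 in edgeR without TMM). Of the 5, centring and shares of miRNA RPM left 0 lower, and the 4 libraries compared or the 6 before oxidation alone gave 5. Leaving out 1 library gave 55 to 82 calls and 0 to 3 of the 5. miR-99b-5p was also no longer called with a pseudocount of 0.1, no filter, a filter of 50 RPM or a replicate block (limma adjusted p = 0.0614 under the block). Between 50 and 100 ng before oxidation (0 as reported) the calls were 40 with a pseudocount of 10, 18 with no filter, 2 with a filter of 50 RPM, 33 on methylated spike-ins, 16 and 11 in edgeR without and with TMM, 42 in the 4 libraries compared and 41 in the 6 before oxidation. A pseudocount of 10, edgeR without TMM and these 2 subsets gave 3 of the 5 lower. Leaving out 1 library gave 0 to 13 calls and 0 of the 5.

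Between 10 and 100 ng after oxidation (2 as reported) the calls were 4 with a pseudocount of 0.1, 5 on shares of miRNA RPM, 4 on methylated spike-ins, 1 with the replicate block and 0 in both subsets. Of the 5, edgeR with TMM gave 0 lower and 1 higher, and both subsets gave 0. Leaving out 1 library gave 1 to 9 calls, 1 to 2 of the 5 lower and 0 to 1 higher. Between 50 and 100 ng after oxidation (6 as reported) they were 10 and 2 with pseudocounts of 0.1 and 10, 1 with no filter, 3 centred, 1 on methylated spike-ins, 2 and 0 in edgeR without and with TMM, 3 with the block and 0 in both subsets. A pseudocount of 0.1 gave 2 of the 5, and no filter, both edgeR runs and both subsets gave 0. Leaving out 1 library gave 0 to 14 calls and 0 to 3 of the 5.

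For oxidation by input (47 as reported) the calls were 21 and 96 with pseudocounts of 0.1 and 10, 17 with a filter of 50 RPM, 15 on shares of miRNA RPM and 0 in both edgeR runs. Of the 5, a pseudocount of 0.1, no filter and both edgeR runs gave 0. A filter of 50 RPM, centring, shares of miRNA RPM, methylated spike-ins and the block gave 1. Leaving out 1 library gave 31 to 55 calls and 0 to 4 of the 5. The 10 minus 100 ng difference turned to -0.20 for miR-10b-5p on methylated spike-ins and to 0.0203 for miR-99b-5p with a pseudocount of 10. Apart from the smaller numbers of miRNAs under the filters, the cause of these changes was not tested.

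Same-numbered libraries did not deviate together (correlations of -0.197 to 0.175 over 15 pairs of groups, 2 of them above 0.1), and the main fits did not pair them. With 625 to 937 miRNA reads per library after oxidation, counting error could hide a shared origin, so this check cannot exclude pairing. The block also ended the oxidation by input call of miR-99b-5p (limma adjusted p = 0.0764). Depth limits all values after oxidation, where 1 read was worth up to 0.520 RPM.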
